A study of Culter alburnus with 6 samples.

Results

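Midkine and pleiotrophin are the members of a small family of secreted growth factors that bind heparin. They were examined here together with receptors described for them and with a receptor kinase related to 1 of these. In the RNA-seq table of caudal fin cells of Topmouth culter (Culter alburnus), 17 of the 61608 assembled rows carried such a name in the NR, KEGG or Swiss-Prot annotation. They comprised 3 rows named for midkine, 1 row named for pleiotrophin, 1 row named for anaplastic lymphoma kinase (ALK), 2 rows named ALK by Swiss-Prot and leukocyte tyrosine kinase receptor (LTK) by NR, 7 rows named for LTK, and 3 rows named for receptor-type tyrosine-protein phosphatase zeta (PTPRZ). A row is 1 gene-level cluster of transcripts assembled from the reads without a genome, and the name of a row is that of the closest protein found in other species.

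The cells were the wild-type line TCCF2022, labelled as fibroblasts, and both groups were sampled at day 7. Cells of the F group received 5 μM Forskolin, a diterpene that activates adenylate cyclase and so raises cyclic AMP (n = 3 libraries), and cells of the CK group received none (n = 3 libraries). The medium of F and CK cells alike was DMEM/F12 with 10% fetal bovine serum and 5 ng/mL bFGF at 27 °C, as the sample labels give it. For this RNA-seq the paper gives the same Forskolin concentration and time as the labels. Its methods for culturing Forskolin-treated cells state another concentration of bFGF and a lower one of Forskolin. The labels were followed here. All libraries came from 1 cell line and the labels do not say how its cultures were divided, so the p-values measure the spread between these libraries, which may be technical, and not that between animals.

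Midkine and pleiotrophin each hold a pair of compact domains that bind sulfated sugar chains, and they promote growth, survival and migration of cells in the embryo and in wounds. In zebrafish the midkine gene is present as the paralogs mdka and mdkb, and mdka is induced in regenerating fin, retina and heart. In mammals the growth factors are held near the cell surface by proteoglycans such as syndecans, and signal through PTPRZ, a phosphatase that ligand binding inhibits, through ALK, through low density lipoprotein receptor-related proteins and through integrins. The question asked of the table was which of these genes were expressed in the fin cells and which differed between F and CK.

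Levels are given as TPM, the share of all transcripts in a library after division by transcript length, and errors are SD over n = 3 libraries. A log2 change is the mean of log2(TPM + 1) in F minus that in CK, which understates the change of low rows. A row was tested with limma where 3 or more of the 6 libraries reached 1 TPM. This filter kept 37532 rows, and 6 of the 17 were among them. Of these 6 rows 2 rose in F, 0 fell and 4 did not pass at an adjusted p of 0.05. At an unadjusted p of 0.05 by limma, the only tool run, the counts were 2 higher and 1 lower. The share of all tested rows at the unadjusted threshold is not given here, so unadjusted counts here and below have no comparator. Among all rows tested, 6.15% were higher and 6.07% were lower in F at the same adjusted threshold, and the median log2 change was -0.01. Both rows that rose also had a log2 change above 1, as did 3.27% of all rows tested, while 3.9% fell by as much and 7.18% passed both thresholds in either direction.

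The rows that rose were the midkines mdkb and mdka. No row of ALK, LTK or PTPRZ, called receptor rows here, passed the test. mdkb, a midkine row whose closest NR protein is a midkine-B-like protein, had 112.19, 220.5 and 223.58 TPM in the 3 F libraries, against 8.3, 9.33 and 13.74 TPM in the 3 CK libraries. The groups did not overlap, and F replicate 1 lay at about the middle between the CK libraries and the other F libraries on the linear scale. Of all rows tested, 16.4% had every F library above every CK library, and 32.1% had no overlap in either direction. The mean of mdkb was 185 ± 63.4 TPM in F and 10.5 ± 2.89 TPM in CK, a ratio of means of 17.7. Its log2 change was 3.99 (standard error 0.31, 95% interval 3.23 to 4.74, adjusted p = 0.00122 from limma), and the exact permutation p of its 6 values was 0.1 (two-sided), and 3 against 3 libraries cannot give a smaller one. This was the 19th largest rise among the 37532 rows tested.

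mdka was the more abundant midkine row in every library. It had 788.1, 1053.14 and 734.71 TPM in F, against 276.53, 260.99 and 277.85 TPM in CK. Again every F library lay above every CK library, while the CK libraries differed little from each other. The mean was 859 ± 171 TPM in F and 272 ± 9.38 TPM in CK, a ratio of means of 3.16. The log2 change of mdka was 1.64 (standard error 0.14, 95% interval 1.296 to 1.98, adjusted p = 0.00172 from limma; exact permutation p = 0.1), which ranked 819th among the rises. By mean level mdka was in place 155 of all 61608 rows in F and in place 449 in CK, whereas mdkb was in place 636 in F and in place 9635 in CK. In falling order the levels were mdka in F, mdka in CK, mdkb in F and mdkb in CK, and no neighbours in this order overlapped across libraries.

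**Figure D1:**
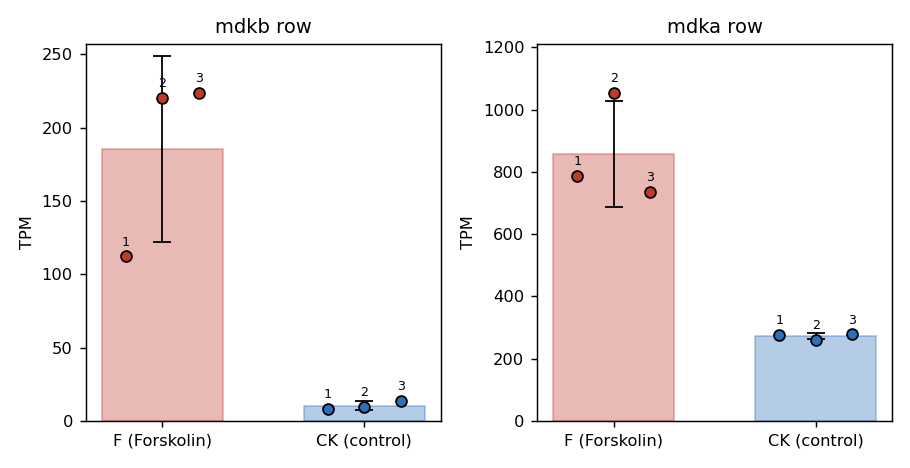
TPM of the mdkb row (left panel) and the mdka row (right panel) in F and CK libraries. Bars are means, error bars are SD over n = 3 libraries, and numbered points are the replicates; all F points lie above all CK points in each panel, with means of 185 against 10.5 TPM for mdkb and 859 against 272 TPM for mdka.

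The letters of these names need care. Both rows have the Xenopus protein Midkine-A as their closest Swiss-Prot entry and both carry the KEGG name MDK. The NR match of the row called mdka is an unnamed hypothetical protein, so its letter comes from the Xenopus entry and is not an assignment to the zebrafish paralog. These were also the only 2 of 61608 rows in which the annotation lists the amino-terminal or carboxy-terminal domain of the pleiotrophin and midkine family.

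The balance between the midkine rows differed between the groups. Expressed as a share of the sum of mdka and mdkb TPM, mdkb took 12.5%, 17.3% and 23.3% in the F libraries, against 2.91%, 3.45% and 4.71% in the CK libraries. The mean share was 17.7 ± 5.45% in F and 3.69 ± 0.923% in CK, without overlap. The TPM of mdka was 7.02, 4.78 and 3.29 times that of mdkb in F, against 33.3, 28.0 and 20.2 times in CK. By TPM mdka thus remained in excess throughout. The size of such ratios and shares depends on how fully each row was assembled, which was not checked. The log2 ratio of mdkb to mdka was -2.25 ± 0.54 in F and -4.60 ± 0.33 in CK, a difference of 2.35 (two-sided p = 0.1 by exact permutation, the lower limit of the design). The sum of the midkine rows was 900.29, 1273.64 and 958.29 TPM in F, against 284.83, 270.32 and 291.59 TPM in CK.

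The third row with a midkine name (TRINITY_DN11014_c1_g2) was close to the limit of detection. It had 0.72, 0.71 and 3.29 TPM in F, against 0.32, 0.51 and 0.2 TPM in CK, and it did not meet the filter for testing. The groups did not overlap (exact permutation p = 0.1), but the annotation lists no midkine domain, Swiss-Prot match or KEGG name for it.

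Only 1 row was named for pleiotrophin, the sister growth factor of midkine (TRINITY_DN19794_c0_g4). It had 16.99, 12.93 and 17.41 TPM in F, against 21.89, 19.49 and 20.96 TPM in CK. Each F library was below each CK library, an order seen in 15.7% of all rows tested. The mean was 15.8 ± 2.47 TPM in F and 20.8 ± 1.21 TPM in CK, and the log2 change of -0.39 (95% interval -0.71 to -0.07) did not pass over all rows (adjusted p = 0.125 from limma). The annotation of this row does not point to a growth factor: its KEGG name is HMGB1, a chromatin protein, and its domain is a helix-turn-helix of Tc3-type transposases, which 68 rows of the table carry. No row of the table therefore joined a pleiotrophin name to a pleiotrophin domain, and the level of pleiotrophin itself was not measured here.

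**Figure D2:**
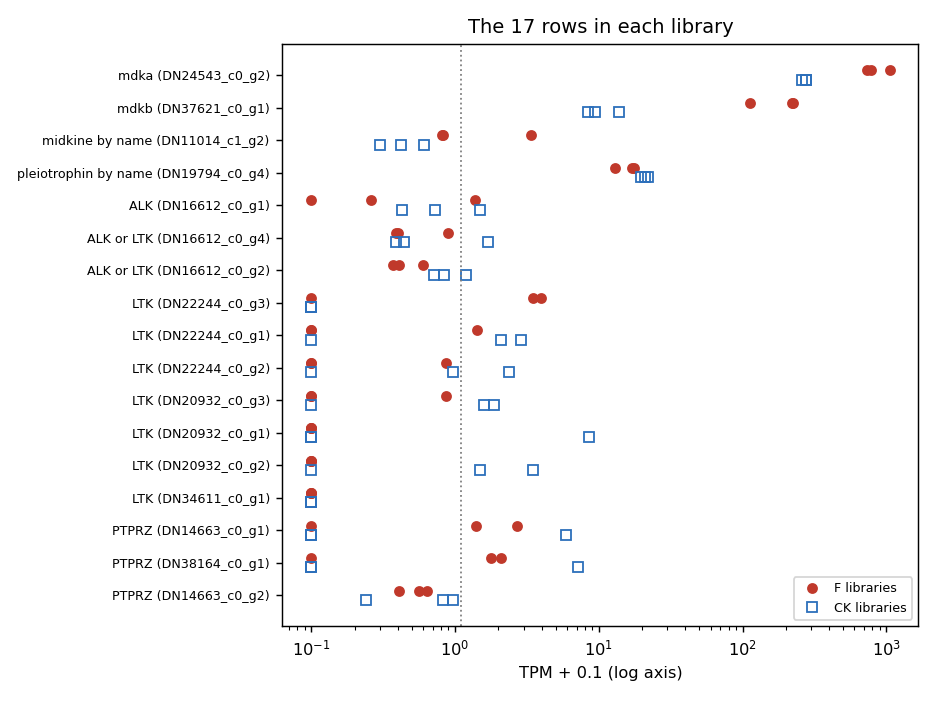
TPM + 0.1 on a log axis for all 17 rows, with filled red circles for F libraries and open blue squares for CK libraries; the dotted line marks 1 TPM. The mdka and mdkb rows separate F from CK at high levels, while the 13 receptor rows lie at or below 8.47 TPM and mostly overlap.

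The receptor rows were expressed at very low levels. Of the 78 values of the 13 rows, 35 were listed at 0, 19 of 39 in F and 16 of 39 in CK, and the highest value was 8.47 TPM. In all, 3 of the 13 rows could be tested, none passed, and in 12 rows the F and CK libraries overlapped. Of all tested rows 32.1% had no overlap in either direction. As 10 of the 13 receptor rows were listed at 0 in 1 or more libraries, their overlap does not show that the receptors were unchanged. The paper gives only an average read number over the replicates and TPM keeps no reads per row, so no counting error was computed. A value of 0 does not show that a receptor was absent.

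ALK and LTK are sister receptor tyrosine kinases, and in zebrafish LTK is needed for the iridescent pigment cells. Of the 13 receptor rows 7 are LTK rows. LTK is not among the midkine receptors named above, so counts and sums over the 13 rows are not levels of midkine receptors alone. The row with the ALK name and a kinase domain (TRINITY_DN16612_c0_g1) had 0, 1.27 and 0.16 TPM in F, against 0.33, 1.39 and 0.62 TPM in CK. The row TRINITY_DN16612_c0_g2 of the same cluster had 0.5, 0.31 and 0.27 TPM in F, against 0.61, 0.74 and 1.09 TPM in CK, and was the only receptor row without overlap. The row TRINITY_DN16612_c0_g4 had 0.3, 0.29 and 0.79 TPM in F, against 1.6, 0.29 and 0.34 TPM in CK. These rows share a cluster and a Swiss-Prot match to zebrafish Alk, so the counting may have divided the reads of 1 gene among them. Summed, the 3 rows had 0.8, 1.87 and 1.22 TPM in F, against 2.54, 2.42 and 2.05 TPM in CK (exact permutation p = 0.1). The sums did not overlap, F being the lower group, but none of the rows met the filter for testing.

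The LTK rows varied more between libraries than between groups. Their sum was 0.76, 4.69 and 4.65 TPM in F, against 14.9, 5.72 and 3.74 TPM in CK (exact permutation p = 0.4). Within this sum 1 row (TRINITY_DN20932_c0_g1) gave 8.47 TPM in CK replicate 1 and was listed at 0 in the other libraries. The only LTK row tested (TRINITY_DN22244_c0_g1) had 0, 1.31 and 0 TPM in F, against 2.76, 0 and 1.98 TPM in CK, and its log2 change of -0.76 had a 95% interval from -2.26 to 0.75 (adjusted p = 0.535 from limma). In the neighbouring row TRINITY_DN22244_c0_g3 the values were 0, 3.38 and 3.88 TPM in F, and all CK libraries were listed at 0. Rows of 1 cluster thus had their higher values in different groups, and the LTK row TRINITY_DN34611_c0_g1 was at 0 in all libraries.

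PTPRZ, the phosphatase receptor of pleiotrophin and midkine, also had no row that passed. The row with the carbonic anhydrase-like and fibronectin domains of its outer part (TRINITY_DN14663_c0_g1) had 0, 1.3 and 2.59 TPM in F, against 0, 5.84 and 0 TPM in CK. Its log2 change of 0.09 had a 95% interval from -2.06 to 2.24 (adjusted p = 0.964 from limma), and the sign turned with single libraries left out (-0.37 without CK replicate 1 or CK replicate 3, -0.32 without F replicate 3). The row with the phosphatase domain (TRINITY_DN38164_c0_g1) had 1.99, 1.69 and 0 TPM in F, against 0, 0 and 7.02 TPM in CK, with a 95% interval from -2.24 to 2.25 around a log2 change near 0 (adjusted p = 0.999 from limma). Differences of this width in either direction could not be detected for these rows. The remaining PTPRZ row (TRINITY_DN14663_c0_g2) stayed between 0.31 and 0.54 TPM in F and between 0.14 and 0.87 TPM in CK. The sum over all 13 receptor rows was 3.86, 10.01 and 9 TPM in F, against 17.58, 14.71 and 13.68 TPM in CK (exact permutation p = 0.1, the lower limit of the design). The sums of the LTK rows and of the PTPRZ rows each overlapped. A large part of each CK sum came from 1 row listed at 0 in the other CK libraries. This was 8.47 TPM of an LTK row (TRINITY_DN20932_c0_g1) in CK replicate 1. In CK replicate 2 it was 5.84 TPM of the row with the carbonic anhydrase-like domain. In CK replicate 3 it was 7.02 TPM of the row with the phosphatase domain. In F the LTK row TRINITY_DN22244_c0_g3 gave 3.38 TPM in replicate 2 and 3.88 TPM in replicate 3, and was listed at 0 in all other libraries. The sums of both groups thus rest in part on single rows, and their order was not tested without these.

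**Figure D3:**
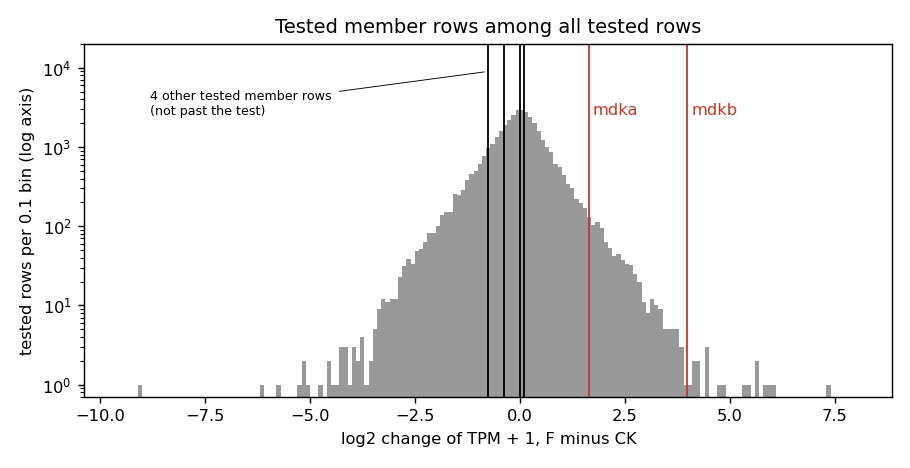
Number of tested rows (log axis) by log2 change of TPM + 1, F minus CK, in bins of 0.1 over all 37532 tested rows. Lines mark the 6 tested rows named for midkine, pleiotrophin, LTK and PTPRZ. The lines of mdka (1.64) and mdkb (3.99) lie in the upper tail, and the 4 rows that did not pass (black) lie between -0.76 and 0.09.

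As bulk RNA was measured, more cells that express midkine and more midkine RNA per cell cannot be told apart. Markers of cell types were read beside the midkines. Of all tested rows 6.15% were higher and 6.07% were lower in F at an adjusted p of 0.05. The marker lists are short, and their counts in this and the next paragraph are not read as a change in cell types. Each symbol stands for its row with the highest mean. A fit with 1 library left out has less power, so a call lost in it need not rest on that library. Of the fibroblast and mesenchyme list, 9 symbols were tested, 1 was higher in F (dcn, not so without F replicate 1 or CK replicate 2) and 3 were lower (lum, thy1 and twist1, of which only lum also passed without CK replicate 1 or CK replicate 2), and its summed level ranged from 3115 to 4257 TPM in F and from 4057 to 4269 TPM in CK. With every row of its symbols counted, this list had 13 tested rows, of which 2 were higher and 3 were lower. The fibroblast collagens col1a1, col1a2, col3a1 and col5a1 had no row under these symbols. The intermediate filament of mesenchyme, vim, had 10.6 ± 2.75 TPM in F and 11.6 ± 5.62 TPM in CK. The epithelial list had sums of 5486 to 6102 TPM in F and 7087 to 7316 TPM in CK, nearly all of it from the keratin rows krt8, krt18 and krt18b. Leaving out these 3 rows was a choice made after seeing the data. The rest of the list summed to 67.6 to 78.8 TPM in F and 128 to 136 TPM in CK. Much of that difference lay in epcam, given below. In contrast, dsp had 29.3 ± 5.74 TPM in F and 29.4 ± 4.20 TPM in CK, and tp63 had 6.84 ± 1.26 and 6.33 ± 0.656 TPM. The row matched to cdh1 by Swiss-Prot (neural cadherin by NR) was listed at 0 in 5 of 6 libraries. Of the 7 tested symbols of the epithelial list 3 fell in F (krt18, cldn4 and epcam). Without F replicate 1, CK replicate 1 or CK replicate 2, epcam was the only 1 of these 3 that still passed. With every row of its symbols counted, the epithelial list had 10 tested rows, of which 1 was higher and 3 were lower. The level of epcam was 31.1 ± 1.67 TPM in F and 83.8 ± 6.64 TPM in CK (log2 change -1.40, adjusted p = 0.000542 from limma).

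The osteoblast list differed most in summed level, and most of it was spp1, a secreted bone matrix protein (1634 ± 113 TPM in F, 14814 ± 1796 TPM in CK). The sum of the list was 2069 to 2235 TPM in F and 13590 to 17095 TPM in CK, with 1 of 6 tested symbols higher and 2 lower. Without spp1, also chosen after seeing the data, the groups overlapped, with 472 to 571 TPM in F and 428 to 509 TPM in CK. The symbol that rose was alpl, an alkaline phosphatase (116 ± 23.4 TPM in F, 56.3 ± 3.31 TPM in CK), and sp7, a transcription factor of osteoblasts, had 76.1 ± 18.4 TPM in F and 35.4 ± 12.7 TPM in CK without passing (adjusted p = 0.0650 from limma). The other symbol that fell, runx2b, did not pass without F replicate 1 or any 1 CK replicate. The pigment cell list, in which LTK has a place, summed to 24.4 to 30.2 TPM in F and to 40.4 to 43.5 TPM in CK, with 0 of 4 symbols past the test in limma, 1 of them lower at an unadjusted p of 0.05, and its markers tyr, dct and pmel had no row. Neural and glial markers summed to 30.3 to 60.6 TPM in F and to 55.6 to 61.2 TPM in CK with 1 of 4 symbols lower (foxd3), and sox10 and elavl3 had no row. Leukocyte markers summed to 7.62 to 11.3 TPM in F and 5.13 to 8.44 TPM in CK with 1 of 2 symbols higher, and the endothelial flt4, the only symbol of its list found, summed to 10.6 to 11.7 TPM in F and 7.06 to 8.35 TPM in CK and was higher in F. The calls of the leukocyte symbol (cd74) and of flt4 were lost whichever library was left out. No symbol of the muscle list had a row. The part of these markers in the midkine result was not tested.

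Genes that bind, carry or transmit midkine signals, and others related to ALK, LTK and PTPRZ, were read from 7 lists. These had 145 symbols in the table, 125 of them tested. In F 18 symbols were higher and 24 were lower, and 83 did not pass. With every row of these symbols counted, 159 rows were tested, of which 23 were higher and 25 were lower. Of all tested rows 12.2% passed the same threshold in either direction. That share covers every row past the filter, named or not, while each list symbol stands for its row with the highest mean. The list counts and that share are thus not matched for level or annotation, and enrichment of the lists was not tested. The median log2 change over the lists was -0.07. The lower count was smaller with a library left out, with 13 symbols without F replicate 1, 15 without CK replicate 1, 11 without CK replicate 2 and 12 without CK replicate 3. Such a fit has less power whichever library is left out. The count of all tested rows lower beyond the fold threshold also fell, from 1465 to between 812 and 1163. A call lost in such a fit thus need not rest on the library left out. With each library left out in turn, 12 of the higher and 11 of the lower symbols passed every time, and the genes named in the next paragraphs belong to these unless stated.

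Other cell surface receptors described for midkine and pleiotrophin included 12 tested symbols, of which 2 were higher, 4 were lower and 6 did not pass (median log2 change -0.10). The lower count was 1 without CK replicate 2 and 2 without F replicate 1, CK replicate 1 or CK replicate 3. itga4, the integrin alpha 4 chain, had 119.33, 116.31 and 71.73 TPM in F, against 27.79, 25.76 and 25.73 TPM in CK (log2 change 1.88, adjusted p = 0.00323 from limma). itga6, the integrin alpha 6 chain, was the other symbol that rose and had 12.8 ± 2.67 TPM in F and 1.26 ± 0.690 TPM in CK. The paralog row itga6b ran the other way, with 58.0 ± 7.14 TPM in F and 95.9 ± 9.59 TPM in CK (log2 change -0.72), although its adjusted p was 0.0575 without CK replicate 2. itgb3b, an integrin beta 3 chain, fell to 3.36, 3.22 and 6 TPM in F, against 49.46, 58.12 and 59.90 TPM in CK (log2 change -3.49, adjusted p = 0.000585 from limma). The integrin chains of the list thus differed in direction.

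Nucleolin (ncl), a nucleolar protein that also binds midkine at the cell surface, was the most abundant of these receptors in the F libraries and in CK replicate 1, with integrin alpha V (itgav) above it in the other CK libraries. It had 184.7, 283.7 and 154.14 TPM in F, against 111.77, 107.21 and 112.07 TPM in CK, and its log2 change of 0.86 narrowly missed the threshold (adjusted p = 0.0522 from limma). The low density lipoprotein receptor-related proteins lrp8 (log2 change -0.59) and lrp1 (log2 change -1.53) were lower in F. With 1 library left out lrp8 passed only without F replicate 2 and lrp1 only without F replicate 3. Levels were low, with 5.94 ± 0.424 TPM in F and 9.42 ± 0.523 TPM in CK for lrp8. The row of lrp1, named by Swiss-Prot alone, had 0.83, 0.71 and 0 TPM in F, against 3.55, 3.26 and 2.89 TPM in CK.

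Proteoglycan partners, whose sulfated chains hold midkine and pleiotrophin, had the largest share of symbols past the test among the 7 lists. Of 20 tested symbols 7 were higher, 8 were lower (4 without CK replicate 2 or CK replicate 3, 5 without F replicate 1) and 5 did not pass, with a median log2 change of -0.55 against -0.01 for all rows. The glypicans, proteoglycans anchored in the outer membrane by a lipid, moved in both directions. gpc1b, the most abundant proteoglycan of the list, had 349.37, 369.96 and 338.95 TPM in F, against 537.39, 574.49 and 607.19 TPM in CK (log2 change -0.70, adjusted p = 0.00355 from limma). gpc5 fell to 3.24 ± 0.890 TPM in F, against 29.7 ± 0.171 TPM in CK (log2 change -2.88), and gpc6b fell to 0.303 ± 0.0577 TPM in F, against 7.45 ± 2.50 TPM in CK (log2 change -2.65).

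In contrast, gpc6a had 32.53, 33.43 and 30.56 TPM in F, against 9.08, 7.28 and 9.92 TPM in CK (log2 change 1.77). A row matched to gpc1 by Swiss-Prot and to glypican-6 by NR had 12.55, 13.18 and 13.22 TPM in F, against 0.26, 0.36 and 0.38 TPM in CK (log2 change 3.39, adjusted p = 0.000285 from limma). Thus gpc6a and gpc6b, rows named for paralogs of 1 glypican, differed in direction.

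Matrix proteoglycans also moved in both directions. vcana, a versican, had 51.9 ± 13.9 TPM in F and 16.3 ± 0.850 TPM in CK (log2 change 1.58), while vcanb, named versican b by NR and neurocan by Swiss-Prot, had 7.71, 7.87 and 4.24 TPM in F, against 46.28, 41.84 and 38.39 TPM in CK (log2 change -2.54, adjusted p = 0.00179 from limma). The basement membrane proteoglycans perlecan (hspg2, 37.1 ± 4.47 TPM in F and 15.3 ± 0.286 TPM in CK, log2 change 1.22) and agrin (agrn, 12.3 ± 2.02 TPM in F and 5.35 ± 0.629 TPM in CK, log2 change 1.05) rose. Among syndecans, the transmembrane partners of midkine, sdc4 was higher in F (194 ± 24.7 against 125 ± 4.87 TPM in CK, log2 change 0.62) and sdc2a was lower (27.7 ± 5.25 against 52.9 ± 4.08 TPM in CK, log2 change -0.93), but sdc4 lost significance without CK replicate 1 or 2, and sdc2a without CK replicate 2 or 3. The epithelial marker sum and spp1, given above, were lower in F beside these rows, and their part in the proteoglycan result was not tested.

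Enzymes that build, sulfate and trim heparan and chondroitin sulfate formed a further list. Of 34 tested symbols 4 were higher (2 without CK replicate 1), 3 were lower and 27 did not pass, with a median log2 change of -0.08. The extracellular sulfatases sulf1 and sulf2b, which remove sulfate groups from heparan sulfate, both rose, sulf1 with 36.68, 41.38 and 36.51 TPM in F, against 16.15, 11.11 and 9.04 TPM in CK (log2 change 1.61, adjusted p = 0.00551 from limma), and sulf2b with 33.2 ± 6.89 TPM in F and 11.8 ± 1.66 TPM in CK (log2 change 1.40). Heparanase (hpse), which cuts heparan sulfate chains, fell to 16.4 ± 1.10 TPM in F, against 25.2 ± 0.992 TPM in CK (log2 change -0.59). chst3b, a sulfotransferase of chondroitin, fell to 9.33 ± 2.42 TPM in F, against 28.2 ± 3.36 TPM in CK (log2 change -1.52).

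**Figure D4:**
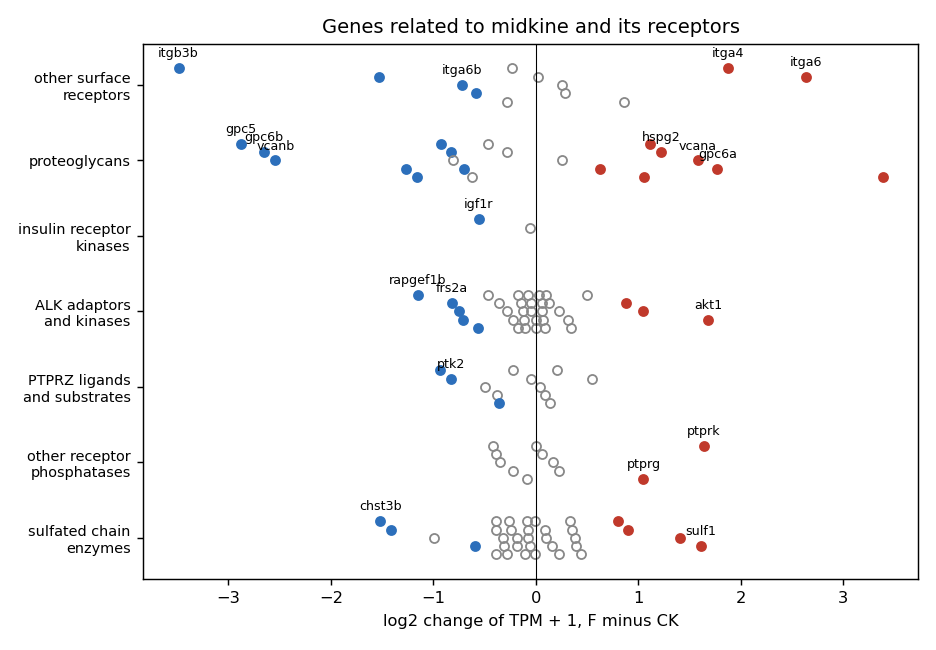
log2 change of TPM + 1, F minus CK, for the 125 tested symbols of the 7 related lists. Filled red points were higher and filled blue points lower in F at an adjusted p of 0.05 (18 and 24 symbols), open grey points did not pass, and the vertical position within a list only separates points; the proteoglycan list spreads widest in both directions, with 7 higher and 8 lower.

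ALK transmits through adaptors and kinases that most receptor kinases use, and most of these did not pass. Of 34 tested symbols 3 were higher (1 without CK replicate 2), 5 were lower (3 without F replicate 1 or any 1 CK replicate) and 26 did not pass, with a median log2 change of -0.05. akt1, a survival kinase, had 188.85, 234.35 and 173.87 TPM in F, against 71.83, 58.09 and 53.80 TPM in CK (log2 change 1.68, adjusted p = 0.00194 from limma). The adaptors frs2a (75.96 ± 6.62 TPM in F, 134 ± 6.90 TPM in CK, log2 change -0.82) and grb2a (12.2 ± 0.860 TPM in F, 21.2 ± 1.31 TPM in CK, log2 change -0.75) fell, and rapgef1b, an exchange factor for Rap1, fell to 8.51 ± 0.965 TPM in F, against 20.1 ± 0.307 TPM in CK (log2 change -1.15). map2k1, a MAP kinase kinase and the most abundant symbol of the list, had 1012 TPM in F and 813 TPM in CK (log2 change 0.31, adjusted p = 0.111 from limma).

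The ligands of ALK and LTK themselves, alkal1 and alkal2, had no row under these symbols. Of the related insulin receptor kinases igf1r had 14.1 ± 2.38 TPM in F and 21.0 ± 1.12 TPM in CK (log2 change -0.56, adjusted p = 0.0490 from limma), a call that was kept only without F replicate 2 when 1 library was left out, and insr had 4.72 ± 1.00 TPM in F and 4.90 ± 0.412 TPM in CK.

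Ligands and substrates of PTPRZ included 12 tested symbols, of which 0 were higher and 3 were lower at the adjusted threshold of limma, with 1 higher and 5 lower at an unadjusted p of 0.05. The lower count was 1 without F replicate 1, CK replicate 2 or CK replicate 3. The focal adhesion kinase ptk2 fell to 23.34, 28.77 and 26.16 TPM in F, against 46.94, 47.46 and 46.57 TPM in CK (log2 change -0.83, adjusted p = 0.00356 from limma). Of the other receptor-type phosphatases, 11 symbols were tested, 2 were higher, 0 were lower and 9 did not pass in limma, with 2 higher and 1 lower at an unadjusted p of 0.05. No share of all tested rows at that threshold is given here, so the unadjusted counts of these lists have no comparator. ptprk, a phosphatase that binds its own kind on adjoining cells, had 41.92, 54.45 and 40.66 TPM in F, against 15.20, 15.57 and 11.22 TPM in CK (log2 change 1.64, adjusted p = 0.00289 from limma). ptprg, the closest relative of PTPRZ, had 11.95, 14.10 and 9.73 TPM in F, against 5.15, 5.35 and 5.04 TPM in CK (log2 change 1.05, adjusted p = 0.0101 from limma). At these levels ptprg exceeded the sum of the PTPRZ rows in all F libraries, whereas in CK it lay within the range of that sum. The PTPRZ rows carry different domains and may be pieces of 1 gene, so their sum may count it more than once. It is not matched to the single row of ptprg.

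The rows whose pattern over the 6 libraries was most like that of each midkine were sought among 10020 tested rows with a symbol and a mean of at least 5 TPM. Likeness was the root mean square difference of log2(TPM + 1) after each row was centred on its own mean, which uses the size of the difference between F and CK as well as the spread within groups. For mdkb the nearest row was cd55, a membrane inhibitor of complement, with 629.16, 713.03 and 850.97 TPM in F, against 34.83, 36.68 and 45.48 TPM in CK (root mean square difference 0.270). It was followed by grp, the gastrin-releasing peptide (0.306), tmc4, a transmembrane channel-like protein (0.339), abi3bp, a matrix protein (0.392), and efnb3b, an ephrin ligand (0.396). In the CK libraries tmc4 (0.56 to 0.79 TPM) and efnb3b (0.73 to 0.85 TPM) lay below 1 TPM, and abi3bp had 0.46, 0.93 and 2.21 TPM. The 1 added before the logarithm shrinks the change of such low rows, so their likeness to mdkb depends on it. For mdka the nearest rows were mboat2, a lysophospholipid acyltransferase (0.0562), tfrca, a transferrin receptor (0.0676), tk1, the cytosolic thymidine kinase (0.0888), polr2e, a subunit of RNA polymerases (0.0896), and frem1b, a basement membrane protein (0.0923). In the CK libraries polr2e (2.04 to 2.16 TPM) and tfrca (2.68 to 3.2 TPM) were low, so their likeness to mdka also depends in part on the added 1. The row mboat2 had 17.84, 22.45 and 15.28 TPM in F, against 5.8, 4.86 and 5.29 TPM in CK. F replicate 2 was its highest library, as for mdka. For mdkb F replicates 2 and 3 lay close together (220.5 and 223.58 TPM), and its nearest rows differed in their highest F library. It was replicate 3 for cd55, grp and tmc4, and replicate 2 for abi3bp and efnb3b. These values describe 6 libraries in 2 groups and were not tested.

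**Figure D5:**
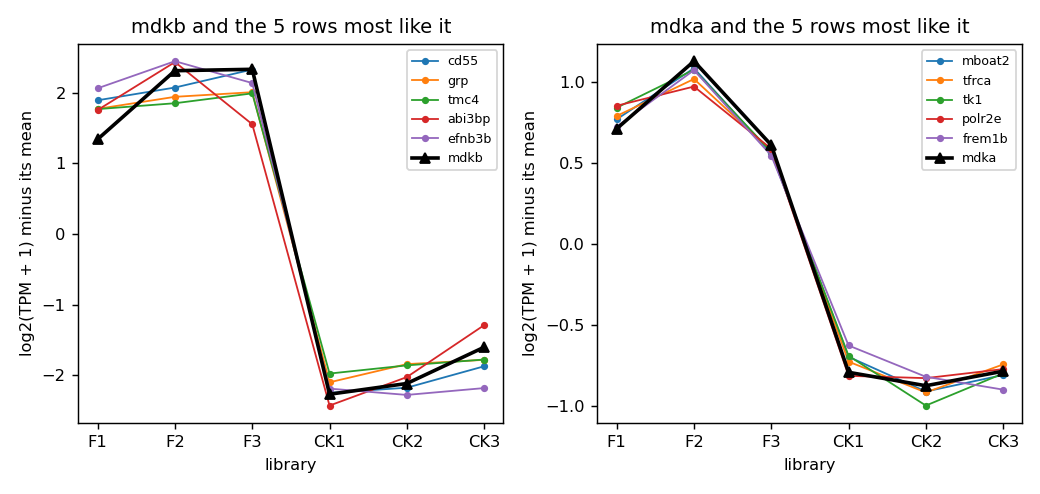
log2(TPM + 1) minus its mean over the 6 libraries for mdkb (left panel, black) and mdka (right panel, black) with the 5 most similar rows of each in colour; lines only join the values of a row, and libraries within a group have no order. All rows shown are higher in the 3 F libraries than in the 3 CK libraries, and in the right panel F replicate 2 is the highest library of each row. The rows were chosen for likeness over these same libraries, so this agreement follows largely from the choice.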

How the data were processed

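RNA was extracted with Trizol and sequenced as Illumina TruSeq libraries, 3 of F and 3 of CK cells, which the paper describes as biological replicates. The authors assembled the reads de novo with Trinity and deposited TPM computed with RSEM 1.3.3, a unit that sums to the same total in each library and keeps no read number. The submitters' processing notes also list DESeq2 1.24.0, which the authors used for differential expression, and TopHat2 2.1.1 and Cufflinks 2.2.1, whose role in this table is not given in the sources used here. The paper states an average read number over the replicates but none for each library, and TPM cannot be turned back into reads, so no counting interval is given. The files hold 2 columns of group means made by the authors, which were not used.

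Differences between F and CK were fitted on log2(TPM + 1) with limma 3.58.1 (R 4.3.3, lmFit, eBayes with trend, two-sided), with Benjamini-Hochberg adjustment over all 37532 rows tested and no covariate. Intervals are 95%. Exact permutation tests (SciPy 1.17.1) of 3 against 3 libraries cannot go below p = 0.1. The fit was also run on simulated data, with changes added only to rows of higher mean level. That run does not bear on the low receptor rows, and its outcome is not given here. Symbols were taken from the gene name of the Swiss-Prot match with the paralog letter of the NR name, and 13 rows were assigned by hand.

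Every row with a name of midkine, pleiotrophin, ALK, LTK or PTPRZ was described. Of the related lists, rows past an adjusted p of 0.05 could be named, and in each list the row with the highest mean TPM and that with the largest change. The row with the highest mean stood for a symbol with several rows. For likeness, the 5 nearest rows with a mean of at least 5 TPM were taken. The rows and lists were chosen with earlier results of these data known. In alternatives the pseudocount was 0.1, the filter on low values was left out or raised to 5 TPM, libraries were scaled by the median of ratios or quantile normalized, the trend was dropped from eBayes, the replicate number entered as a block, rows were summed over each symbol before testing, the fold threshold was dropped, or 1 library was left out. Sequences were not used here. The Pearson correlation of log2(TPM + 1) between libraries was 0.891 to 0.896 within F, 0.875 to 0.897 within CK and 0.828 to 0.857 between F and CK, and the libraries had 43934 to 46258 rows above 0. Leaving out a library kept the same 37532 rows. It lowers the power of the test, so calls can be lost whichever library is left out.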

Additional observations from a re-analysis of the deposited data

How the results depend on the processing

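mdkb and mdka kept their direction and their call under all alternatives run: the log2 change of mdkb ranged from 3.98 to 4.10 under other processing and from 3.82 to 4.31 with 1 library left out (adjusted p from limma at most 0.0105), and that of mdka from 1.63 to 1.66 and from 1.48 to 1.74 (adjusted p at most 0.0175). The difference of their log2 ratio ranged from 2.08 to 2.62 with 1 library left out (exact permutation p = 0.2, the smallest such a design allows). Counts over all rows with a log2 change beyond 1 moved more. The higher count of 1229 became 613 and the lower count of 1465 became 786 with the filter at 5 TPM, which tests fewer rows. Without the fold threshold they were 2310 and 2277, and with 1 library left out they ranged from 696 to 1043 and from 812 to 1163. The lower count of the related lists ranged from 11 to 23 with 1 library left out and from 12 to 29 under other processing, and the higher count from 13 to 21 and from 12 to 23. The PTPRZ rows had no stable sign. The log2 change of the row with the carbonic anhydrase-like domain ranged from -0.37 to 1.02 with 1 library left out, and that of the row with the phosphatase domain from -0.50 to 1.00. The phosphatase domain row, ptprz1 (TRINITY_DN38164_c0_g1), was at -0.00449 with median-of-ratios scaling. With TPM summed per symbol, this row was added to TRINITY_DN14663_c0_g2, which has the same symbol, and the sum was at -0.0437.

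F and CK share replicate numbers, and the deviations of same-numbered libraries from their group means correlated at 0.00552, 0.00903 and 0.00608. Values this small cannot tell whether the libraries were paired. Each library did correlate best with its own number, but by margins too small to tell paired from unpaired libraries. In the fit with the replicate block, 655 rows were higher and 799 lower beyond the fold threshold, and 12 related symbols were higher and 12 lower. Of the 42 related symbols that passed, 24 also passed in that fit, and mdkb (adjusted p = 0.00590) and mdka (adjusted p = 0.0175 from limma) did. The cause of these shifts was not tested. The table holds no reads per row, so the receptor rows, many of which lie near or below 1 TPM, were not judged for counting error.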

Other observations

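Some further assembled rows share an assembly cluster with the rows described above. They had no NR match, except TRINITY_DN19794_c0_g2 in the cluster of the pleiotrophin row, which matched a hypothetical protein. In the cluster of mdka the row TRINITY_DN24543_c0_g3 had 2.25, 2.1 and 2.37 TPM in F, against 0.45, 0.5 and 1.35 TPM in CK (log2 change 0.91, adjusted p = 0.105 from limma), and the row TRINITY_DN24543_c0_g1 had 1.37, 0.84 and 1.19 TPM in F, against 0.4, 0.44 and 0 TPM in CK. Neither overlapped between the groups and both were higher in F, an order seen in 16.4% of all rows tested. Levels were a few TPM or less, and TRINITY_DN24543_c0_g1 did not meet the filter for testing. In the cluster of the third midkine row, TRINITY_DN11014_c1_g1 had 0, 1.52 and 0.36 TPM in F, against 0.72, 1.57 and 0.93 TPM in CK, with overlap. The rows that share the cluster of the pleiotrophin row overlapped too. In the cluster of the ALK rows the row TRINITY_DN16612_c0_g3 was listed at 0 in all F libraries and had 0, 4.74 and 12.1 TPM in CK.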
